A study of Mus musculus with 16 samples.

Results

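The adrenal glands of male and female mice held 21 genes whose mRNA was higher in every mouse given an anti-CD115 Ab than in every isotype control of the same sex. These genes were chosen by their measured values. They are the genes with a mean of at least 2 CPM (counts scaled to a library sum of 1000000) over the 16 libraries, for which the lowest anti-CD115 mouse stood above the highest isotype mouse in males and again in females. They were 21 of 13072 genes at that level, or 0.161%, and the files list 51912 genes. The treatment differences of these genes are therefore a description of what the rule selected, and no p-value is given for them. Tests of these genes are given for comparisons that the rule did not use, between the sexes within a treatment.

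Whole adrenal glands of 16 wild-type C57Bl/6 J mice aged 7 weeks were sequenced, and there were 4 mice for each sex and Ab, which makes 4 groups. Each mouse received 500 µg of the anti-CSF1R (CD115) clone AFS98 or of the isotype clone 2A3 intraperitoneally, the same dose again 2 days later, and both its glands were collected together 16 h after the second dose. A cold exposure is also written in the labels' protocol, but the titles name only the Ab and the mice were taken as kept without it. The libraries held between 23196317 and 26314672 counts, so that 3 counts equal between 0.114 and 0.129 CPM. The labels do not say whether mice with the same replicate number shared a litter or a day. The counts of each library carry a number, which the titles do not explain. It runs from 1 to 10 for anti-CD115 and from 11 to 19 for isotype. Within anti-CD115 the males have 1 to 5 and the females 6 to 10. Within isotype they have 11 to 15 and 16 to 19. If the number is an order of the libraries, neither treatment nor sex within a treatment can be told apart from its effect.

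CSF1R is the receptor through which CSF1 keeps many tissue macrophages alive, and an Ab that blocks it depletes these cells. Most of the genes described here serve basic functions of all cells. Hsp40 proteins such as the product of Dnajb1 hand unfolded proteins to Hsp70 chaperones, and Dnajb1 is a classical target of the heat shock factor HSF1. Ribosomal proteins and assembly factors make the ribosome, and the proteins imported into mitochondria build the respiratory chain that the steroid-making cells of the adrenal cortex rely on.

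The labels were checked on macrophage genes. Csf1r was between 42.3 and 64.7 CPM in the isotype mice of either sex and between 5.10 and 9.80 CPM in the anti-CD115 mice. Cx3cr1, a chemokine receptor, and Adgre1, which encodes F4/80, were likewise lower in all anti-CD115 mice, with log2 fold changes over both sexes of -3.90 (SE 0.16) and -2.72 (SE 0.17). Of 16 macrophage markers, 16 fell over both sexes (edgeR quasi-likelihood test, adjusted p under the threshold of 0.05), and their summed level was between 501 and 850.4 CPM in isotype and between 96.1 and 170.0 CPM in anti-CD115 mice. In whole tissue, fewer cells of a type and less RNA per cell cannot be told apart. The Y-linked gene Ddx3y was between 38.2 and 68.4 CPM in the males and at most 0.154 CPM in the females.

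One library stood apart. Male anti-CD115 replicate 1 gave the smallest total of all libraries, and genes of the mitochondrial genome took 22.8% of it. In the other 15 libraries they took 11.8 to 15.6%. It also held the highest sum of 10 adipocyte markers, with 3528 CPM against 453 to 1213 CPM in the other mice, the most abundant of these markers in it being Fabp4 at 1222 CPM. With its mitochondrial share in the total, the CPM values of its other genes were lower than under TMM scaling, where its factor was 0.856. When it was left out, 55 genes met the rule. All 21 were among them, which was fixed in advance, since leaving out a mouse cannot create an overlap.

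Among the 16 genes of the set for which RefSeq promoter windows were at hand (GRCm38.p6, the build of the files, from 250 bases before to 50 bases after the start site), 4 windows are shown. Nup35, Eif3i, Tmem100, Ccdc117 and Fam136a had none. The Dnajb1 window is given because this gene differed most, and its capitals mark the CCAAT box read on the other strand, which 1 of its 2 windows in the table holds. The other 3 are the windows of the set that hold a full cAMP response element, in capitals, with which factors of the CREB and ATF family are known to pair. They lie at chr8:83607925-83608224 (Dnajb1), chr19:6057697-6057996 (Fau), chr7:45717821-45718120 (Rpl18) and chr15:89355469-89355768 (Ncaph2), all on the plus strand.
Dnajb1: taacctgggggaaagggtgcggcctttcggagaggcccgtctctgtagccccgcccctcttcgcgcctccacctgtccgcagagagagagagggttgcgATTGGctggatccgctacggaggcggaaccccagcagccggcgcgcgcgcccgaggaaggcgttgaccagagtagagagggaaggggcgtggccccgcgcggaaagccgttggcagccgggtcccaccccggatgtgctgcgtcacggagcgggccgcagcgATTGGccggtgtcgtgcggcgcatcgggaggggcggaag
Fau: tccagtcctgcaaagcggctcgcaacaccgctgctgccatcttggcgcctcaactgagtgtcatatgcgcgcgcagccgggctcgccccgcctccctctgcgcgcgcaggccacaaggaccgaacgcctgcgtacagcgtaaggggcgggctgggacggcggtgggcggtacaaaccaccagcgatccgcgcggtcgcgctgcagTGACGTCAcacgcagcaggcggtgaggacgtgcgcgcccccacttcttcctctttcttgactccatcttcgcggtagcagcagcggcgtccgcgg
Rpl18: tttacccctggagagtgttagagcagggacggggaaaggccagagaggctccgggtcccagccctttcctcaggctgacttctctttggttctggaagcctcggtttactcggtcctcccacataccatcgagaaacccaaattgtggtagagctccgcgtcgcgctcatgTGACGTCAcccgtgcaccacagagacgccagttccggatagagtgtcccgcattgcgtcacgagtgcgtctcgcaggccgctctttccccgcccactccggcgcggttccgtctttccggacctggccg
Ncaph2: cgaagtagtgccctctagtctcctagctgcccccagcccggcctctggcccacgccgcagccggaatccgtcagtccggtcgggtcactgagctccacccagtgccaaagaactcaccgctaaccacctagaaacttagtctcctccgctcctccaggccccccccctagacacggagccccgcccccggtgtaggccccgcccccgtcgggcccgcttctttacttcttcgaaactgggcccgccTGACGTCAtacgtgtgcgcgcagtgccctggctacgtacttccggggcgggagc

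The element TGACGTCA, which reads the same on both strands, occurred in 3 of the 16 genes and in 2.03% of the 27025 genes with a window. Counted with 0 at the start site, it began at -45 in Fau, -79 in Rpl18 and -4 in Ncaph2. The CCAAT box (CCAAT or ATTGG) was in 8 of the 16 and in 41.1% of all, with 1 copy at -151 and 1 at 11 in the Dnajb1 window. The E-box CACGTG, the letters bound by clock and MYC proteins, was in 2 (Pno1 and Rpl34) against 8.09% of all. None of the 16 held the heat shock element, sought as a run of 3 alternating units, on either strand (0.662% of all), the D-box TTATGTAA on either strand (1.11%) or the full palindrome of the glucocorticoid response element (0.0111%). These letters are a description of the windows only, and a match is not a binding site.

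The chaperone gene Dnajb1 (chr8:83608193-83612653) differed most. It was at 80.2, 47.4, 47.7 and 72.2 CPM in the 4 isotype males and at 97.8, 139, 196 and 149 CPM in the 4 anti-CD115 males. In females it was at 53.6, 47.8, 51.1 and 42.1 CPM under isotype and at 83.2, 77.5, 74.2 and 64.1 CPM after anti-CD115. The isotype males split into a pair near 47 and a pair above 70, and all anti-CD115 mice lay above the isotype mice of their sex. The highest isotype male, however, stood above 3 of the 4 anti-CD115 females. Its mean was 135% higher in males and 53.7% higher in females, and its log2 fold change over both sexes was 0.98 (SE 0.13).

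Ccdc117 encodes a coiled-coil protein and had the third largest change of the set. Isotype males were at 22.1, 18.7, 17.5 and 18.5 CPM and anti-CD115 males at 23.0, 35.7, 30.6 and 35.8 CPM. Isotype females were at 22.3, 17.9, 20.8 and 20.2 CPM and anti-CD115 females at 27.9, 30.1, 31.0 and 24.8 CPM. Of the anti-CD115 mice, male replicate 1 was the lowest and stood only just above the highest isotype male. The log2 fold change was 0.77 (SE 0.11) in males and 0.54 (SE 0.11) in females.

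Tmem100, a membrane protein gene known from endothelium and from signaling by the ligands BMP9 and BMP10, had the lowest level of the set. It was at 2.79, 2.75, 2.70 and 3.76 CPM in isotype males and at 4.96, 4.52, 5.06 and 5.53 CPM in anti-CD115 males. The isotype females were at 3.20, 2.53, 3.33 and 2.71 CPM and the anti-CD115 females at 3.45, 4.41, 3.99 and 5.77 CPM. The male groups were separated by a wider gap than the female groups, in which the lowest treated mouse lay 1.04 times above the highest control. Of 10 endothelial markers, 2 were called higher in males, beside 1.10% of all genes, and 0 over both sexes, with a median log2 fold change of -0.04. Their median was 0.11 in males, with 9 of 10 above 0, and -0.16 in females, with 2 of 10 above 0 and 0 called by edgeR, and their part in the Tmem100 values was not tested.

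**Figure D1:**
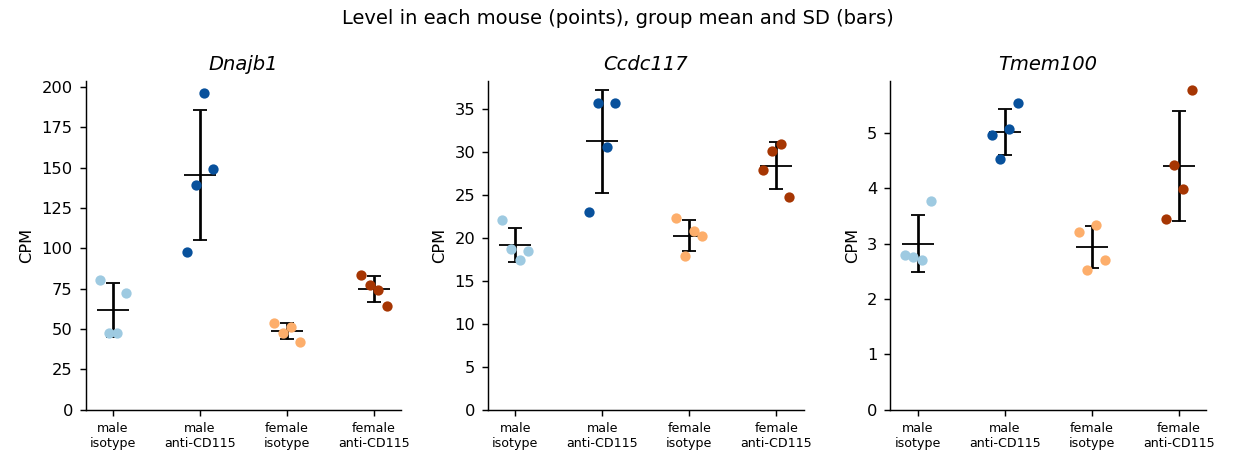
CPM of Dnajb1, Ccdc117 and Tmem100 in each mouse (points, linear axes from 0), with the mean and SD of the 4 mice of a group as bars. All anti-CD115 mice lie above the isotype mice of the same sex, and anti-CD115 males reach 196 CPM for Dnajb1 where anti-CD115 females reach 83.2 CPM.

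The other 18 genes differed far less. In 16 of the 21 genes the mean of anti-CD115 males was less than 25% above that of isotype males, and in 18 the mean of anti-CD115 females was less than 25% above that of isotype females. By these means of CPM, the median over the set was 18.9% in males and 14.1% in females. In the model fit, which scales the libraries by TMM, the median log2 fold change of the set was 0.33 in males and 0.24 in females, beside 0.01 for all 16654 genes tested in each sex. The median coefficient of variation of the set within a group of 4 mice was between 4.48 and 6.90%. The change in males was the larger one in 18 of the 21, the exceptions being Pno1, Prdx1 and Eif3i, and this order was not tested since the rule used both changes.

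**Figure D2:**
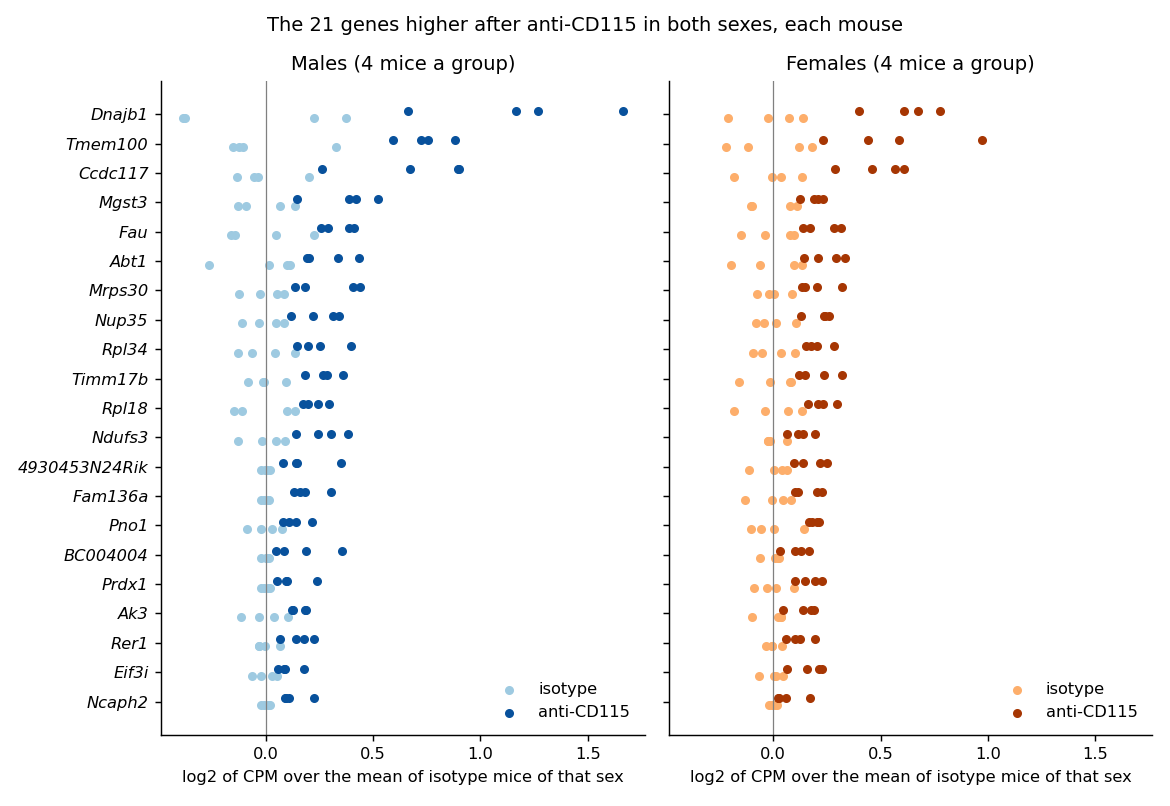
Each of the 21 genes in each mouse, as log2 of CPM over the mean of the isotype mice of that sex, with males on the left and females on the right and genes ordered by their change over both sexes. Dnajb1, Tmem100 and Ccdc117 lie apart from the rest, whose means were 7.42 to 29.6% higher in males and 5.07 to 18.5% higher in females.

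Genes of the cytosolic ribosome and of translation initiation made up 4 of the set. Fau, which encodes ribosomal protein S30 joined to a ubiquitin-like domain, was at 177, 153, 200.2 and 155 CPM in isotype males and at 205, 209.7, 228 and 224 CPM in anti-CD115 males. In females Fau was at 158, 170.4, 187 and 185 CPM under isotype and at 213, 218, 197 and 193 CPM after anti-CD115. The groups did not overlap in either sex, but the lowest anti-CD115 female, at 193 CPM, was below the highest isotype male. Rpl18 and Rpl34, proteins of the large subunit, and Eif3i, a subunit of initiation factor eIF3, had log2 fold changes over both sexes of 0.29 (SE 0.07), 0.30 (SE 0.06) and 0.20 (SE 0.06). Over these 4 genes the means were 7.42 to 26.4% higher in males and 12.1 to 17.2% higher in females. Fau, Rpl18 and Rpl34 each have 2 pseudogenes by name in the annotation, and since fragments with several alignments were not counted, their levels are uncertain.

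Abt1 and Pno1, nucleolar factors needed to assemble the small ribosomal subunit, were also in the set. Abt1 ranged from 9.56 to 12.4 CPM in isotype and from 13.1 to 15.5 CPM in anti-CD115 males. In females its ranges were 10.2 to 12.8 CPM under isotype and 12.9 to 14.7 CPM after anti-CD115. Pno1 was 9.88% higher in males and 14.1% higher in females. Its highest isotype female, at 45.2 CPM, was just below the lowest treated female at 45.9 CPM.

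Products that work in mitochondria came from 5 genes. Mrps30 encodes a protein of the mitochondrial ribosome, Ndufs3 a core subunit of respiratory complex I, Timm17b a part of the inner membrane import channel and Ak3 the matrix adenylate kinase that uses GTP, and the protein of Fam136a is also found in mitochondria. Ndufs3 was at 99.3, 91.8, 107 and 104 CPM in isotype males and at 131, 111, 119 and 124 CPM in anti-CD115 males. In females it was at 108, 109, 108 and 115 CPM and at 121, 126, 115 and 119 CPM. The female groups met at 115 CPM as printed, and the treated mouse was the higher by the unrounded values. Here male anti-CD115 replicate 1, the library rich in mitochondrial counts, was the highest mouse. Without it the log2 fold change of Ndufs3 over both sexes was 0.20 in place of 0.27. The means of the 5 genes were 11.3 to 22.7% higher in males and 9.22 to 15.6% higher in females.

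Prdx1, a peroxiredoxin that removes peroxides, had the highest CPM of the set, with a mean of 460.1. It was between 427 and 439 CPM in isotype males and between 449 and 511 CPM in anti-CD115 males. In females the ranges were 414 to 471 and 472 to 516 CPM, so the female groups were separated by about 1 CPM as printed. Mgst3, a membrane-bound glutathione transferase, was at 69.7, 71.6, 79.9 and 83.8 CPM in isotype males and at 99.8, 84.4, 109.6 and 102 CPM in anti-CD115 males. Isotype females were at 97.5, 113, 110.5 and 97.9 CPM and anti-CD115 females at 114, 119.5, 121 and 123 CPM. The isotype females were all above the isotype males for this gene.

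The remaining genes of the set were Nup35, which encodes a nucleoporin, Ncaph2, a subunit of condensin II, Rer1, which returns membrane proteins from the Golgi to the endoplasmic reticulum, and 4930453N24Rik and BC004004. Nup35 had a log2 fold change over both sexes of 0.30 (SE 0.07), and the gene shares its strand and part of its position with Dusp19. For the other 4 it was between 0.17 (Ncaph2) and 0.25 (4930453N24Rik), with 0.21 for BC004004. Without male anti-CD115 replicate 1 it was 0.17 for 4930453N24Rik and Rer1 and 0.13 for BC004004 and Ncaph2. 4930453N24Rik was between 29.2 and 30.0 CPM in isotype males, which is the narrowest of its groups, and between 31.3 and 37.7 CPM after anti-CD115.

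Levels between genes can be compared only per length. Per kb of exonic length, Fau was the most abundant of the set with a mean of 236 CPM per kb over the 16 mice, followed by Prdx1 at 151 and Ak3 at 104 CPM per kb. Tmem100 was the lowest at 2.17 CPM per kb, and Dnajb1, at 25.8, lay near Fam136a (27.8), Pno1 (24.7) and Mrps30 (23.5). The set thus spans genes of very different abundance.

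The rule's edges were examined as well. The lowest means in the set were 3.84 CPM (Tmem100) and 12.8 CPM (Abt1), and no gene under 2 CPM was higher without overlap in both sexes, as 21 genes also met the rule with no minimum. The narrowest gaps were in females, where Ncaph2 reached 70.9 CPM under isotype and began at 71.0 CPM after anti-CD115, and where BC004004 reached 77.6 and began at 77.7 CPM. The widest was that of Dnajb1, 1.20 times in females and 1.22 times in males. Just outside were Mrpl54 and Cox6b1, for which the lowest anti-CD115 male was 1.000 and 0.999 times the highest isotype male. Both encode mitochondrial proteins.

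With the treatment labels swapped in both sexes, the same rule gave 247 genes (1.89% of 13072) that were lower in every anti-CD115 mouse. With the labels swapped in females only it gave 0 genes, and with them swapped in males only it gave 3. In males alone 355 genes (2.72%) were higher without overlap and 774 (5.92%) lower, and in females 276 (2.11%) were higher and 592 (4.53%) lower. In the model fit over both sexes more genes were also called lower than higher, with 254 higher (1.53% of 16654) and 645 lower (3.87%). This ratio is less unequal than that of 21 to 247, but the fit scales the libraries by TMM and the rule does not. With TMM library sizes the rule gave 63 higher and 216 lower genes.

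Of the 21 genes, 18 were among the 254, and 4930453N24Rik, BC004004 and Ncaph2 were not. Of the other called genes, 83 were free of overlap in males alone and 68 in females alone, and 85 overlapped in both sexes. In males 9 of the set were called higher and 0 lower, beside 1.10 and 3.06% of all genes. In females 1, Ccdc117, was called higher and 0 lower, beside 0.0600 and 1.81%. As the rule used these contrasts, the counts describe it and support nothing.

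**Figure D3:**
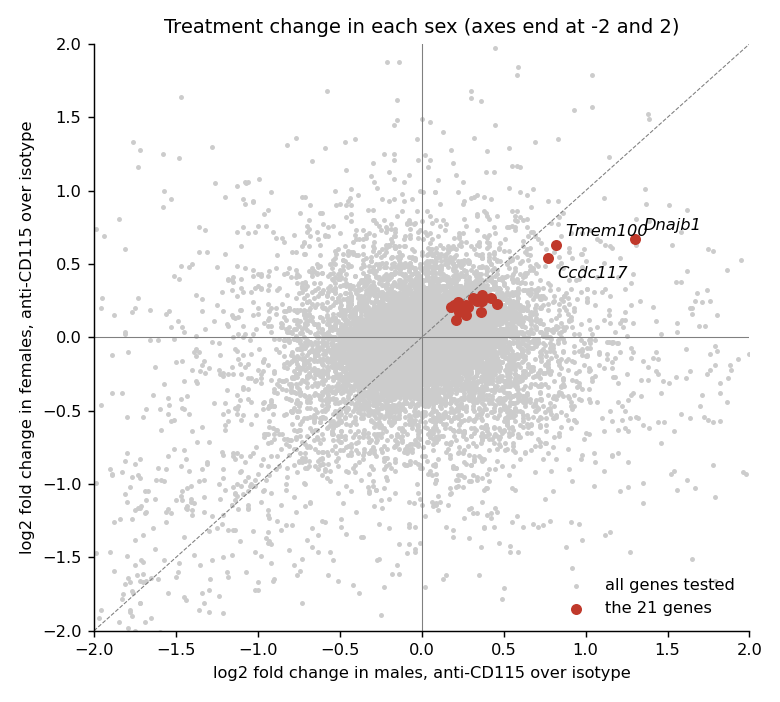
Log2 fold change of anti-CD115 over isotype in males (x axis) and females (y axis) for all genes tested (grey) and for the 21 genes (red), with the dashed line marking equal change. The 21 genes span 0.18 to 1.30 on the male axis and 0.12 to 0.67 on the female axis, and 18 of them lie on the male side of the line.

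The sexes were compared within each treatment, which the rule did not use. Within a treatment, sex cannot be told apart from any effect of library order. Under isotype 3 of the 21 genes differed (18.9% of all genes did so in either direction, edgeR), with 3 higher in females (8.54% of all genes) and 0 lower (10.3%). They were Ak3, with a log2 difference of 0.55 (SE 0.09, adjusted p = 8.2e-05), Fam136a, with 0.53 (SE 0.09, adjusted p = 0.000162), and Mgst3, with 0.47 (SE 0.11, adjusted p = 0.00313). Ak3 was at 269, 245, 231 and 257 CPM in isotype males and at 369.6, 373, 339.6 and 373 CPM in isotype females, with no overlap. Fam136a was between 57.3 and 58.8 CPM in isotype males and between 75.4 and 87.7 CPM in isotype females. For these 3 genes the estimated difference between the sexes was larger than that between treatments over both sexes, which was not tested. These 3 calls were also made under the alternative fits that hold both sexes and without any 1 of the mice.

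After anti-CD115, 3 of the 21 genes also differed between the sexes (21.5% of all genes did so), 2 of them higher and 1 lower in females, where 1834 of the 16654 genes were higher and 1748 (10.5%) lower. Fam136a and Ak3 were higher in females by 0.45 (adjusted p = 0.000698) and 0.50 (adjusted p = 0.00024) on the log2 scale. Dnajb1 was lower in females, with a log2 difference of -0.97 (SE 0.19, adjusted p = 0.00126, edgeR), and its 4 treated females, at 64.1 to 83.2 CPM, were all below the 4 treated males, at 97.8 to 196 CPM. Under isotype the log2 difference of Dnajb1 between females and males was -0.34 (adjusted p = 0.247). Mgst3 was 0.25 higher in treated females (adjusted p = 0.103) and passed the test when male anti-CD115 replicate 1 was left out. The 3 calls held without any 1 of the mice.

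The pathway around Dnajb1 was followed in a list of 39 heat shock and cytosolic chaperone genes. Over both sexes 6 of the 39 were called higher and 0 lower. Of these 6, Dnajb1 was chosen on this contrast, and of the other 38 genes 5 were called higher, beside 1.53% of all genes higher and 3.87% lower, and the list's median change on the log2 scale was 0.15 beside 0.01. Besides Dnajb1 these were the Hsp40 genes Dnaja1 (0.35, SE 0.09, adjusted p = 0.0187) and Dnajb4 (0.37, SE 0.10, adjusted p = 0.0284), the Hsp90 partners Chordc1 (0.36, SE 0.09, adjusted p = 0.0295) and Ptges3 (0.30, SE 0.07, adjusted p = 0.0142), and the collagen chaperone Serpinh1 (0.32, SE 0.09, adjusted p = 0.0443). In males 7 of the other 38 were called higher, beside 1.10% of all genes, and the median of the 39 was 0.27. In females 0 were called by edgeR, with a median of 0.06, and 0 of the 38 genes other than Dnajb1 had an unadjusted p under 0.05. With Dnajb1 left out, the median of the remaining 38 genes was 0.26 for males and 0.06 for females. Whether the list differed between the sexes was not tested.

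These calls lay near the threshold. Without male isotype replicate 2, which had the lowest levels of several of these genes, 2 of the list were called over both sexes. Among the 16 fits that each left out 1 mouse, Ptges3 lost its call in 0, Dnaja1 in 3, Dnajb4 in 6, Chordc1 in 10 and Serpinh1 in 11. Their log2 fold changes stayed above 0 in all of them.

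The Hsp70 genes Hspa1a and Hspa1b, which are induced by heat and have nearly the same sequence, varied widely among the isotype males. Since fragments with several alignments were not counted, the levels of both genes are uncertain. Hspa1a was at 128, 23.0, 41.1 and 125 CPM in isotype males and at 105, 197, 265 and 194 CPM in anti-CD115 males, so the groups overlapped. In females it was at 25.6, 33.0, 44.2 and 33.0 CPM under isotype and at 62.2, 44.0, 61.4 and 61.7 CPM after anti-CD115. The same 2 isotype males, replicates 1 and 4, that were high for Dnajb1 were high for Hspa1a. The log2 fold change of Hspa1a over both sexes was 1.06 (SE 0.33, adjusted p = 0.0905) and that of Hspa1b was 0.97 (SE 0.34, adjusted p = 0.119), and neither passed the test, though each did with DESeq2 (adjusted p = 0.0242 and 0.0459). The constitutive Hspa8 had 0.22 (SE 0.09, adjusted p = 0.182).

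**Figure D4:**
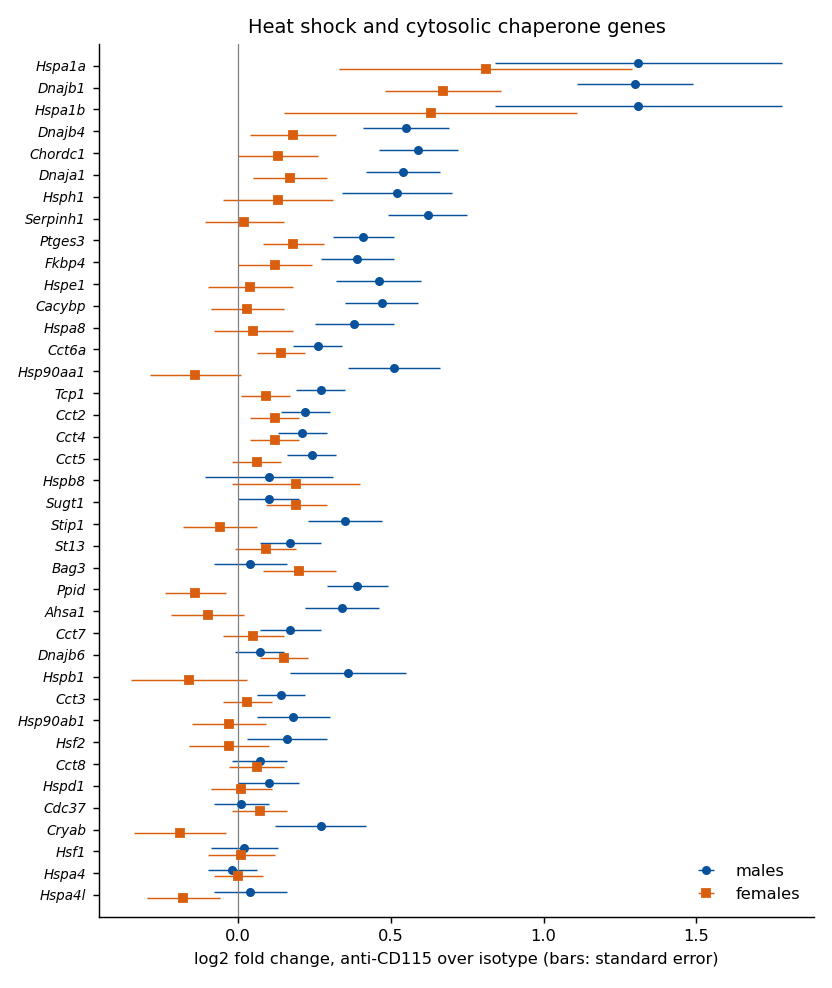
Log2 fold change of anti-CD115 over isotype with its standard error for the 39 heat shock and cytosolic chaperone genes, males as blue circles and females as orange squares, ordered by the change over both sexes. In males 38 of the 39 lie above 0 and in females 30, with medians of 0.27 and 0.06.

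Other lists were read in the same way, over both sexes, where 1.53% of all genes were called higher and 3.87% lower, so that 1 call in a list of this size is no result about the list. Of 19 clock genes, 1 rose (Cry1, 0.51, SE 0.11, adjusted p = 0.00926) and 1 fell (Nr1d1, -0.57, SE 0.14, adjusted p = 0.0256). Of 11 genes that respond to glucocorticoid, Cdkn1a rose (0.41, adjusted p = 0.0405) and Zbtb16 fell (-0.64, adjusted p = 0.0124). Of 2 RNA-binding protein genes induced by cold, Cirbp fell by 0.37 on the log2 scale (adjusted p = 0.0488), and Rbm3 had 0.08 (SE 0.15, adjusted p = 0.812). Of 21 genes of the endoplasmic reticulum chaperone list 1 was called, Xbp1 (0.26, adjusted p = 0.0209), of 31 proteasome genes 1 (Psma6), of 21 splicing factors Tra2b higher and Srsf5 lower, and of 12 oxidative stress genes 1, Prdx1, which was chosen on this contrast. Among the 16 fits that each left out 1 mouse, Cry1, Zbtb16 and Srsf5 kept their calls in all, while Nr1d1 lost its call in 4, Xbp1 in 5, Psma6 in 9, Cdkn1a in 10, and Cirbp and Tra2b in 11 each. Of the interferon list 1 of 18 genes was called, and it was lower. The lists of immediate early genes, steroidogenesis, cholesterol synthesis and uptake, hypoxia, cell cycle and mitochondrial chaperones had 0 calls over both sexes by edgeR. The immediate early genes had a median of -0.62 in males, with 4 of 20 above 0, and 0.52 in females, with 19 of 20 above 0. None of the 20 was called in either sex, and the difference between the sexes was not tested.

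As to cell of origin, none of the 21 genes is on a list of cell type markers. Over both sexes no marker of adrenal cortex (8 genes), chromaffin cells (12), endothelium (10), fibroblasts and capsule (10), adipocytes (10), brown adipocytes (8), Schwann and sustentacular cells (7), erythrocytes (5) or mast cells (4 tested) was called. In the small lists Cd4, of 10 T and NK cell markers tested, and Csf3r, of 2 neutrophil markers tested, were called lower. Of 4 B cell markers tested 0 were called, and 0 T and NK cell markers had a mean of at least 2 CPM. The adipocyte markers had a median log2 fold change of 1.59 in males and -0.16 in females, and their sum was 3528 CPM in male anti-CD115 replicate 1 against 547 to 1013 CPM in the other 3 treated males. Without that mouse their median in males was 0.15. The brown adipocyte markers had a median of 1.86 in males, or 0.29 without that mouse, and -0.42 in females, and their sum was 725 CPM in it against 16.6 to 146 CPM in the other mice. Without the same mouse the median of the 21 genes was 0.25 in males and 0.23 in females, in place of 0.33 and 0.24. The adrenal cortex markers had a median of 0.08 over both sexes. The chromaffin markers had a median of -0.19 in males, with 2 of 12 above 0, and 0.14 in females, with 12 of 12 above 0. Without male anti-CD115 replicate 1 their median in males was -0.44. For the erythrocyte markers the median was 0.38 in males, with 5 of 5 above 0, and -0.39 in females, with 1 of 5 above 0. These differences between the sexes were not tested. All 21 genes are protein coding and none is a macrophage marker.

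Because the set held ribosomal and mitochondrial proteins, their whole families were counted after the values were seen, as a description without a test. Of 83 cytosolic ribosomal protein genes tested, 82 had a log2 fold change above 0 over both sexes with a median of 0.25, against 51.9% and 0.01 for all genes. For 74 mitochondrial ribosomal proteins the median was 0.19 with all above 0, for 79 nuclear-encoded respiratory chain subunits 0.28 with 78 above 0, for 23 TIM and TOM import subunits 0.18 with 22 above 0 and for 12 eIF3 subunits 0.15 with 10 above 0. Cytosolic ribosomal protein genes with a mean of at least 2 CPM numbered 81. In males 26 of them (32.1%) were higher without overlap, beside 2.72% of all genes. In females 9 (11.1%) were, beside 2.11%, and 3 were so in both sexes. Those 3 are Fau, Rpl18 and Rpl34 of the set, which prompted the count and are part of the 26 and of the 9. The respiratory chain subunits had a median of 0.44 in males and 0.12 in females. Their summed level was 14279.9 CPM in male anti-CD115 replicate 1, between 10715 and 11069 CPM in the other 3 treated males and between 9537 and 9959.6 CPM in the isotype males. Without that mouse their median was 0.22 in males and 0.11 in females. That of the cytosolic ribosomal proteins was 0.25 in males, in place of 0.31, and 0.18 in females. In females the summed levels of most families overlapped between treatments. The cytosolic ribosomal sums were 20585 to 25976 CPM under isotype and 24877 to 25418 CPM after anti-CD115. The respiratory chain sums were 9974 to 10989 and 10909.5 to 11545 CPM. Mitochondrial ribosomal and eIF3 sums overlapped as well. The TIM and TOM sums did not, with 931 to 981 and 1003 to 1094 CPM.

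Exonic length, the summed length of all annotated exons of a gene, was not used by the rule. The median of the 21 was 2702 bases (quartiles 1767 and 3372) and that of the 13072 genes was 4228 bases (quartiles 2588 and 6579.5). Of the 21, 19 (90.5%) were shorter than the median of all genes. The shortest were Fau at 815 and Mgst3 at 1097 bases and the longest 4930453N24Rik at 5948 and BC004004 at 6017 bases. With all genes split by length into 4 equal bins from short to long, 9, 10, 2 and 0 of the set fell in each, against 61, 64, 65 and 57 of the 247 genes that were lower. Those 247 had a median of 4177 bases, close to that of all genes. Among all genes free of overlap in a given sex, those of both sexes included, the 355 higher in males had a median of 1899 bases and the 774 lower in males 5694 bases. In females the medians were 3119.5 bases for the 276 higher and 4494 bases for the 592 lower genes.

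**Figure D5:**
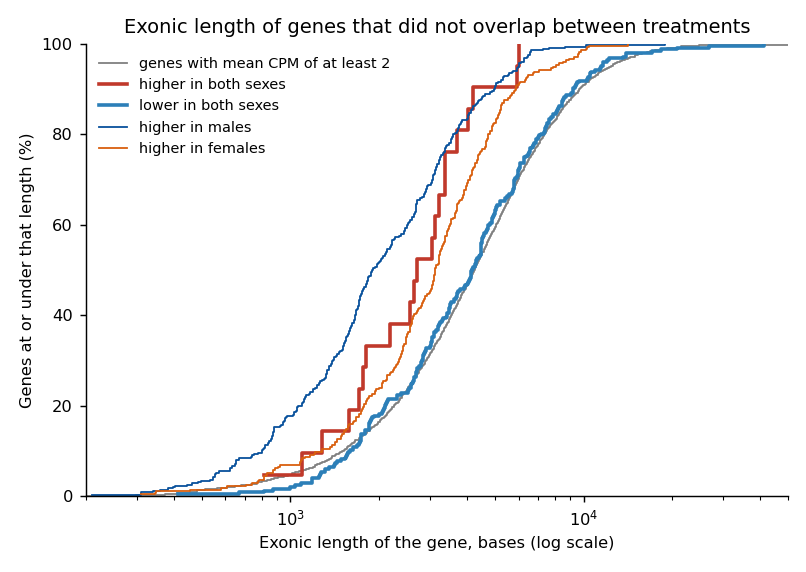
Share of genes (y axis, %) at or under a given exonic length (x axis, bases, log scale) for the 21 genes higher in both sexes (thick red), the 247 lower in both (thick blue), all genes higher in males or in females and all 13072 genes (grey). The curve of the 21 lies to the left of that of all genes, with medians of 2702 and 4228 bases, while that of the lower genes follows it.

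How the counts were scaled decided which genes were in the set. With TMM library sizes, which discount genes that take a large part of a library, 63 genes were higher in both sexes, 17 of them in the set, and 216 were lower, so that the share of higher genes went from 7.84 to 22.6%. With the size factors of DESeq2 it was 63, with 18 in the set, and with each mouse's trend with exonic length removed it was 69, with 11 in the set and a median length of 5119 bases. The genes kept under all 4 other scalings were Dnajb1, Tmem100, Ccdc117, Timm17b, Nup35, Ndufs3, 4930453N24Rik, Fam136a, BC004004 and Rer1, which are 10. Those lost when the length trend was removed included Fau, Rpl18, Rpl34, Mrps30, Abt1, Prdx1, Mgst3 and Eif3i. Ak3 and Pno1 were kept under none of the 4.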

How the data were processed

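Read pairs from stranded mRNA libraries were mapped to GRCm38 by the authors with HISAT2 2.2.1, and fragments per gene were counted with featureCounts 2.0.1, and the submitters' processing notes also name SAMtools 1.3.1 and FastQC 0.11.9. What was deposited is the raw count per gene (reverse strand, not normalized), and the authors left out fragments with several alignments or on several genes. The file headers name Ensembl release 89 for the annotation and the paper's methods another release. CPM values were computed here from the sum of each library. Of the identifiers, 51633 were matched to a symbol and 279 were not.

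Low counts were filtered in R 4.3.3 with edgeR 4.0.16 (filterByExpr, minimum count 10, minimum total 15). A quasi-likelihood model with TMM factors and 1 mean for each of 4 groups was fitted to all 16 mice, with two-sided tests and Benjamini-Hochberg adjustment over the 16654 genes tested. The paper's methods name DESeq2 for differential expression but no design formula, so the design was chosen here and DESeq2 was run as an alternative. Standard errors include the variation between mice, and the floor of 3 counts covers counting error only. The labels do not say that the mice came from separate cages or litters, and p-values measure the spread between these mice. The alternatives were RLE size factors, no filter, a replicate block, TMM without mitochondrial and the 10 most counted genes, removal of each mouse's length trend (lowess, span 0.3), DESeq2 1.42.0, each sex alone and each mouse left out.

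Motifs were searched on both strands, the heat shock element as 3 alternating units of GAA or TTC with 2 free bases between them. The genes of the set, the 29 gene lists and the rule for named genes were chosen with earlier results of these data known, and 5 further lists after values were seen. The genes named were the 15 of the set with the largest change, the 5 with the highest CPM, those on a list, those called between the sexes, those at the rule's edges, up to 4 genes per list with the smallest p, 3 macrophage genes and the shortest and longest. The others of the set were named to account for all of them, and Hspa8 was named after its values were seen.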

Additional observations from a re-analysis of the deposited data

Results flagged for a closer look

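Of 84 groups of 4 mice examined over the 21 genes, 3 had a mouse far from the other 3 by Dixon's 95% critical value for 4 samples, which chance reaches in about 1 in 20 groups. Tmem100 reached 3.76 CPM in male isotype replicate 4, and the other isotype males ranged from 2.70 to 2.79 CPM. For Ak3 the mouse was female isotype replicate 3, at 339.6 CPM, with the other isotype females at 369.6 to 373 CPM. For Ncaph2, male anti-CD115 replicate 3 had 79.5 CPM, while the other treated males ranged from 72.6 to 73.5 CPM.

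The swap of the treatment labels in males only gave 3 genes with opposite directions in the sexes, each without overlap, and the difference between the sexes was not tested. Fam160a1 had a log2 fold change of -0.27 in males and 0.20 in females, with 15.9 to 19.6 CPM in isotype and 12.7 to 15.7 CPM in anti-CD115 males. For Otud3, a deubiquitinase gene, it was -0.55 in males and 0.47 in females. For Tmem132b it was -0.50 in males and 0.29 in females, and anti-CD115 male replicate 3 was the lowest mouse at 3.85 CPM.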

How the results depend on the processing

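The count of 21 genes became 63 with TMM library sizes, 63 with RLE size factors and 69 with the length trend removed, and 31 when mitochondrial genes and the 10 most counted genes were left out of the library sum. With 1 mouse left out, which loosens the rule by its construction, it was 21 to 69 and all 21 were kept in each case. It was 55 without male anti-CD115 replicate 1, 36 without male isotype replicate 3, 69 without female isotype replicate 3 and 34 without female anti-CD115 replicate 3. The 247 lower genes became 163 with a mean CPM of at least 5, and 241 to 303 with 1 mouse left out. The 9 genes of the set called in males became 3 with the length trend removed and 2 with each sex fitted alone, and 2 to 10 with 1 mouse left out (2 without male isotype replicate 2, 4 without male anti-CD115 replicate 3). The 1 called in females became 2 with DESeq2 and 2 with each sex alone, and 1 to 2 with 1 mouse left out (2 without male anti-CD115 replicate 3). The 18 called over both sexes became 9 to 19 with 1 mouse left out, 9 being the count without male isotype replicate 2 and also without female isotype replicate 1. Calls between the sexes under anti-CD115 became 5 with the length trend removed (Mgst3 and Pno1 were added), and 3 to 4 with 1 mouse left out. The 899 genes called over both sexes became 1300 with DESeq2 and 555 to 1114 with 1 mouse left out, 555 without male isotype replicate 2 and 561 without female isotype replicate 1. The cause of these moves was not tested. Of the genes outside the set that were recomputed under the alternatives, Rbm3 changed sign, from 0.08 to -0.02 without female anti-CD115 replicate 2 (range -0.02 to 0.18 with 1 mouse left out).

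The labels give only shared replicate numbers. Same-numbered mice did not deviate together, with correlations of -0.0635 to 0.0814 for males and -0.127 to 0.0974 for females. With the replicate block the counts of the set called were 9 in males, 1 in females, 15 over both sexes, 3 under isotype and 3 under anti-CD115, and 842 genes were called over both sexes.

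The 6 genes called in the heat shock list became 11 with DESeq2 and 2 to 8 with 1 mouse left out. Of the 83 cytosolic ribosomal protein genes tested, edgeR called 35 higher over both sexes, beside 1.53% of all genes. This became 12 with the length trend removed, 50 with DESeq2 and 8 to 51 with 1 mouse left out. For the respiratory chain subunits 14 became 5, 24 and 2 to 28 in that order. These families were chosen after values were seen, so their counts are a description only. The lowest mean in the set, 3.84 CPM, was above the floor of 0.129 CPM.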

Other observations

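Across the 16 mice, after the mean of each group was taken off, log2 CPM of Dnajb1 and of Ccdc117 had a Pearson's r of 0.599 (permutation test, p = 0.0742, Benjamini-Hochberg p = 0.148 over 2 relations) and a Spearman's rho of 0.468 (permutation p = 0.132). Without the 2 mice farthest from the median of Dnajb1 r was 0.513. For Dnajb1 and Tmem100 r was 0.107 (permutation p = 0.712, adjusted 0.712) and rho 0.226 (permutation p = 0.417), with r at 0.120 without 2 mice. Neither relation passed the test.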
